A study of Mus musculus with 2 samples.

Results

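Microglia that held at least 1 unique molecular identifier (UMI, 1 counted RNA molecule) of Itgax, and in which MHC class II transcripts were scarce, were 625 of the 4439 cells of the series. A cell was a member when the invariant chain gene Cd74 and the class II genes H2-Aa, H2-Ab1 and H2-Eb1 together made up less than 0.3% of its UMIs. There were 356 members among 2131 medial cells and 269 among 2308 lateral cells. The comparison cells held 0 Itgax UMIs, were under the same class II limit, and were matched 1 to 1 to the members on total UMIs within each library. Itgax and the 4 class II genes chose the members, so their values are given as a description and were not tested.

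The series is a pair of droplet 3' single-cell RNA-seq libraries of microglia sorted by flow cytometry, 1 of the medial and 1 of the lateral part of the corpus callosum. The mice of both libraries were of strain C57Bl6 with genotype CX3CR1 and were fed cuprizone for 4 weeks, so the series has no untreated cells. Cuprizone chelates copper and kills oligodendrocytes, which strips myelin from the corpus callosum, the main white matter tract between the hemispheres. Which CX3CR1 allele the mice carried, their age, how many mice gave each library and the sort gate are not stated in the labels used here. With 1 library per region, medial and lateral values are set side by side without a test.

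Itgax encodes CD11c, the alpha X chain that pairs with the beta 2 chain Itgb2 to form complement receptor 4, and its protein is the usual surface marker of dendritic cells. Microglia of the healthy adult brain carry little of it, while CD11c-positive microglia appear in developing white matter, during demyelination and around amyloid plaques, where they are known for Igf1, Spp1, Apoe and other genes of the disease-associated state. Conventional dendritic cells carry much MHC class II, and so do antigen-presenting microglia, both of which the class II limit leaves out.

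Itgax lies on the plus strand of mouse chromosome 7, at chr7:128129547-128150657 of GRCm38 (mm10), between Itgam and Itgad in a cluster of integrin alpha genes. The 250 bases before the RefSeq start of Itgax and of 3 genes described below that were higher in members are shown, because the members are defined by transcription of the first. They were read from RefSeq on GRCm38.p6 and are written 5' to 3' on the strand of the gene. Capitals mark GGAAGT, the core that PU.1, the lineage factor of microglia, and other ETS factors can bind, and TGANTCA, the AP-1 motif, each on either strand.
Itgax, chr7:128129300-128129549, plus strand: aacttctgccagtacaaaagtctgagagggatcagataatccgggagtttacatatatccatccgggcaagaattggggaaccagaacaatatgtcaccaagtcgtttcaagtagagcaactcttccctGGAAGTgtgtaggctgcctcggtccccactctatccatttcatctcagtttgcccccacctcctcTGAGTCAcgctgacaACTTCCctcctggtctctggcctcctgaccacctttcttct
Ccl6, chr11:83593088-83593337, minus strand: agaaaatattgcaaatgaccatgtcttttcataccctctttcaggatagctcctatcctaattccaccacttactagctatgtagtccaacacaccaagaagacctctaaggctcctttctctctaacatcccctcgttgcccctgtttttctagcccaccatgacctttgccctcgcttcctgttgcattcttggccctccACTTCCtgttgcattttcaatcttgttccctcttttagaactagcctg
Spp1, chr5:104434861-104435110, plus strand, the first of 2 windows of this gene: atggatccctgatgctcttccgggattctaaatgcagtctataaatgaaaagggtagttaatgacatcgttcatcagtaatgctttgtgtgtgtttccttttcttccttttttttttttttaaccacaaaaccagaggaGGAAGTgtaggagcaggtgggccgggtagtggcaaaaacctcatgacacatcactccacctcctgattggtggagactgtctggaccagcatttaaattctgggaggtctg
Siglecf, chr7:43351091-43351340, plus strand: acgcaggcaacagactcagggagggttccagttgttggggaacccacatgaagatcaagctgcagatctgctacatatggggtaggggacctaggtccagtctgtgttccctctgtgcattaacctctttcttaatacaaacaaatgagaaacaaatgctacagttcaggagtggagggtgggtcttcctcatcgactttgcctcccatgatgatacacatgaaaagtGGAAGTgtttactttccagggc
The Itgax window held GGAAGT 2 times and TGANTCA 1 time, and each of the other windows held GGAAGT 1 time and no TGANTCA. No rule chose the 3 other genes, so their windows do not stand for the rest of the higher genes. Of all 32851 RefSeq windows of this length, 19.7% held GGAAGT and 6.75% held TGANTCA. Of the 491 windows of genes higher in members, 22.4% and 8.55% did, beside 25.1% and 4.21% of the 7641 windows of all tested genes. Of the 179 windows of genes lower in members, 21.8% and 3.35% did. Windows were found for 355 of the 453 higher and 144 of the 175 lower genes. These matches describe letters in the windows and are not measured binding sites.

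Most members held a single Itgax molecule. In the medial library 234 members had 1 Itgax UMI, 62 had 2 and 60 had 3 or more, up to 14 in 1 cell. In the lateral library 196 had 1, 49 had 2 and 24 had 3 or more, up to 7. Members made up 16.7% of medial cells (15.1 to 18.4, Clopper-Pearson 95% interval) and 11.7% of lateral cells (10.4 to 13). Medial cells were deeper, with medians of 10732 UMIs against 9694. With every cell thinned to 5000 UMIs, leaving out 279 medial and 424 lateral cells, the shares were 9.90% (8.56 to 11.3) and 6.90% (5.80 to 8.14). With all cells thinned to 2400 UMIs they were 5.81% (4.86 to 6.90) and 3.84% (3.11 to 4.72). The medial share was thus the larger at each depth, and at none did the intervals overlap. Over all cells of a library Itgax stood at 35.1 CPM (UMIs of a gene per 1000000 UMIs; 32.7 to 37.5, exact Poisson) in medial cells and 21.2 CPM (19.4 to 23.2) in lateral cells. All intervals cover counting error within a library only, not the difference between animals.

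**Figure D1:**
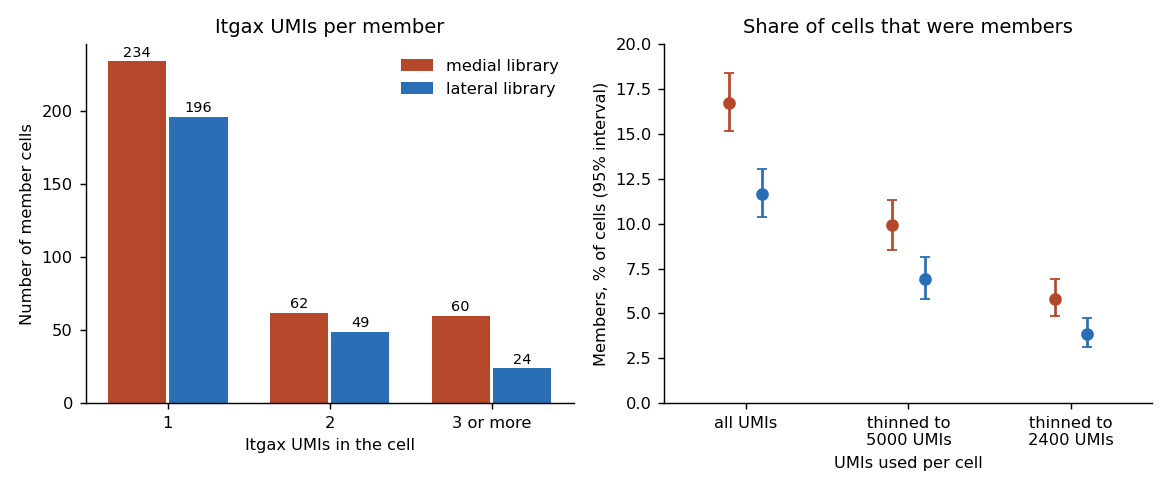
Left, number of members by Itgax UMIs held, in the medial (red) and lateral (blue) library. Right, members as a percentage of cells with all UMIs used and with each cell thinned to 5000 or 2400 UMIs; points are shares and bars are 95% Clopper-Pearson intervals. A single UMI was the commonest value (234 and 196 cells), and the medial share was the higher at each depth.

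Membership depends on depth, and the comparison cells are not all free of Itgax RNA: a cell with 0 UMIs can carry molecules that were not captured. The Itgax UMIs to be expected from free RNA were estimated from barcodes with few UMIs, and the part of free RNA was not tested further. Barcodes with fewer than 100 UMIs held 25.1 CPM of Itgax in the medial library and 24.1 in the lateral, and at their mean of 13.8 and 12.9 UMIs such RNA would place an Itgax UMI in 0.739 and 0.718 cells of all those kept. No other cell type was present in number to give a second background. The libraries shared 7 cell barcodes, with 6.67 to be expected by chance from the numbers of cells and of barcodes.

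Cells with more class II more often held an Itgax UMI. Among medial cells the share with an Itgax UMI was 15.7% (14 to 17.5) where class II was under 0.05% of UMIs and 60.4% (52.1 to 68.3) in the 149 cells at or over 0.3%. In the lateral library these shares were 11.2% (9.84 to 12.7) and 48.6% (39.0 to 58.3), the latter among 111 cells. Thinned to 5000 UMIs, 50.4% of class II-high and 10.6% of class II-low medial cells still had an Itgax UMI, and 30.9% and 7.28% of lateral ones. Members nevertheless made up most Itgax-positive cells, since 90 of 446 medial and 54 of 323 lateral ones were class II-high. The median class II share of UMIs was 0.0238% over medial and 0.0165% over lateral members, and no class II UMI was seen in 42 and 65 of them. Near the limit, 12 medial and 6 lateral Itgax-positive cells lay between 0.2% and 0.3%, and 6 and 8 between 0.3% and 0.4%.

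The members carried the markers of microglia, and most dendritic cell markers were at or near 0 UMIs in them. The 16 microglia identity genes took 394 of 10000 UMIs in medial and 404 in lateral members, against 394 and 399 in matched cells. Of the 15 dendritic cell markers, Flt3, Xcr1, Clec9a and Irf4 came to at most 1 UMI each over all members of a library, Cd209a, Clec10a and Ccl17 to 0, and Zbtb46 to 9 UMIs in each library. Batf3, a further gene of the list, had 74 medial and 58 lateral UMIs in members against 77 and 33 in matched cells. A count of 0 allows up to 3 UMIs, which is 0.722 CPM in medial and 0.989 CPM in lateral members. The summed dendritic list reached 2.01 and 2.11 of 10000 UMIs in members and 1.63 and 1.496 in matched cells, most of it Fscn1, an actin-bundling gene that is not specific to dendritic cells (fitted difference 0.44, edgeR adjusted p = 3.26e-07, DESeq2 0.140, by the fit described below). Ccr7, the receptor of migrating dendritic cells, had 32 medial and 13 lateral UMIs in members against 10 and 4, and Ccl22 had 8 UMIs in medial members and 0 elsewhere. Monocyte genes Ly6c2 and Chil3 were at 0, Ccr2 was at 8 and 2 UMIs in members, and the border macrophage genes Cd163 and Lyve1 were at 0 with Mrc1 at 3 and 0. Other border macrophage genes were seen: Pf4 had 77 medial and 46 lateral UMIs in members against 104 and 72 in matched cells, and Ms4a7 had 147 and 39 against 76 and 73. Monocyte markers summed to 3.03 and 2.26 of 10000 UMIs in members and 2.53 and 2.45 in matched cells, nearly all of it Fn1 and Nr4a1. Border macrophage, neutrophil, oligodendrocyte, oligodendrocyte precursor, astrocyte, neuron and lymphocyte lists each summed to between 0.0457 and 1.19 of 10000 UMIs in members. Endothelial and mural markers came to 9.25 and 9.84 against 9.86 and 10.4 in matched cells, most of it Bsg, with Cldn5 at 0.

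To ask what else differed in Itgax-positive cells, UMIs were summed over the 356 and 269 members and over as many matched cells, and the 4 sums were compared by edgeR's quasi-likelihood test with library as a block. Median totals were 11408 and 11402 UMIs for medial and 11202 and 11201 for lateral cells. Of 7648 genes tested, 453 were higher in members at a Benjamini-Hochberg adjusted p under 0.05, which is 5.92%, and 175 lower, which is 2.29% (8.21% in all). The sign was the same in both libraries for 608 of these 628. A call on a difference common to both libraries favours equal signs, and the share over all tested genes was not counted. The fit has 1 residual degree of freedom and takes its spread from all genes together, near counting noise, so its p-values do not measure differences between mice. DESeq2 on the same sums called 86 higher and 7 lower, which is 2.36% and 0.192% of the 3645 genes it gave an adjusted p, all among the 628. Without the library block edgeR called 20 higher and 1 lower. Without scaling beyond total UMIs it called 227 higher and 312 lower, a different split, so small differences are relative to the typical gene. Fitted log2 differences are members minus matched cells, and log2 ratios given per library are of CPM without the scaling, with an exact conditional binomial 95% interval.

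Apolipoprotein E had the smallest edgeR p with the library block (without the block, adjusted p = 0.0534). Apoe, which carries cholesterol and other lipids out of cells, had 60421 CPM in medial members against 42608 in medial matched cells, and 52823 against 37681 in the lateral library. The log2 ratio was 0.50 (0.50 to 0.51) medial and 0.49 (0.48 to 0.50) lateral, and the fitted difference was 0.58 with an edgeR adjusted p of 6.73e-128 (DESeq2 4.28e-25). Its neighbour Apoc1, another apolipoprotein, had 542 CPM in medial members against 299.5 in medial matched cells, and 414 against 231 in the lateral library. The fitted difference of Apoc1 was 0.93, edgeR adjusted p = 6.39e-54. Both genes were higher in members of both libraries by a similar ratio, although the levels of both were higher in the medial library.

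Spp1 encodes osteopontin, a secreted phosphoprotein. It had 6132 CPM in medial members against 3575 in medial matched cells, and 7163 against 4845 in the lateral library, a fitted difference of 0.75 (edgeR adjusted p = 4.68e-114). The log2 ratio was 0.78 (0.75 to 0.81) in the medial library and 0.56 (0.53 to 0.59) in the lateral. Ccl6, a CC chemokine, rose by more than a factor of 2 on the fitted scale. It had 959 CPM in medial members against 435 in medial matched cells, and 1331 against 671 in the lateral library, log2 ratios of 1.14 (1.06 to 1.22) and 0.99 (0.91 to 1.06), and a fitted difference of 1.14 (edgeR adjusted p = 9.85e-123, DESeq2 8.18e-37).

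Of the disease-associated list, which holds genes that microglia raise around plaques and damaged myelin, 25 of 35 tested genes were higher in members and 1 was lower. The median fitted difference was 0.26, against 0.00 over all genes tested, and DESeq2 called 18 higher and 0 lower. The list is the one this cell state is known for and was chosen with earlier results known. Axl, a receptor that clears dead cells and debris, had 370.0 CPM in medial members against 224 in medial matched cells, and 378 against 265 in the lateral library, fitted 0.70 (edgeR adjusted p = 3.47e-28). Cst7, an inhibitor of lysosomal cathepsins, rose by a fitted 0.43 and the tetraspanin Cd9 by 0.36. Lpl, which splits lipoprotein triglycerides, rose by 0.39, and the galectin Lgals3 by 0.39. Igf1, a growth factor for oligodendrocytes, was higher by 0.20 in edgeR (adjusted p = 0.00304) but not in DESeq2 (adjusted p = 0.677), and its lateral interval held 0, 0.08 (-0.01 to 0.18).

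Gpnmb was the only disease-associated gene called lower. It encodes a lysosomal glycoprotein and had 541 CPM in medial members against 599.6 in medial matched cells, and 329 against 453 in the lateral library, fitted -0.20 (edgeR adjusted p = 0.00342, DESeq2 1.0). The lateral fall was the larger, -0.46 (-0.58 to -0.34) on the log2 scale against -0.15 (-0.23 to -0.07) medial. Cells with at least 2 Itgax UMIs, matched again, differed by library, with 560.2 CPM against 466 in those with 0 in the medial library, and 323 against 425 in the lateral. The fitted difference over both was then 0.11 with an edgeR adjusted p of 0.627. Cd68, a lysosomal membrane protein often used as a sign of phagocytic activity, was not called, at 1218 CPM in medial members against 1262 in medial matched cells, and 1383 against 1468 in the lateral library.

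Homeostatic genes, those of surveying microglia, did not move as one. Of 25 tested, 7 were higher and 6 lower, and the median fitted difference was -0.01, while their summed share was 252 of 10000 UMIs in members against 243 in matched cells of the medial library, and 257 against 235 in the lateral. Tmem119, a microglial membrane protein, was the homeostatic gene with the smallest p among those that fell. It had 343 CPM in medial members against 612 in medial matched cells, and 313 against 532 in the lateral library, log2 ratios of -0.83 (-0.93 to -0.74) and -0.77 (-0.88 to -0.65), and a fitted difference of -0.72 (edgeR adjusted p = 3.07e-36, DESeq2 3.70e-10). P2ry12, the receptor with which microglia sense extracellular nucleotides, had 305 CPM in medial members against 447 in medial matched cells, and 360.2 against 449 in the lateral library, fitted -0.36 (edgeR adjusted p = 1.50e-08). Cst3, the secreted protease inhibitor cystatin C, went the other way and outweighed them in the sum: it had 10699 CPM in medial members against 8851 in medial matched cells, and 10982 against 8097 in the lateral library, fitted 0.44 (edgeR adjusted p = 5.60e-47). Cx3cr1, the fractalkine receptor that gives the mice their genotype, was not called (fitted -0.04), with 326 CPM in medial members against 393 in medial matched cells, and 337 against 326 in the lateral library. The growth factor receptor Csf1r, on which microglia depend for survival, was higher by 0.23 (edgeR adjusted p = 4.95e-06, DESeq2 0.0830).

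Growth and repair factors were higher for 9 of 16 genes and lower for 1 (3 and 1 in DESeq2, 5 and 2 without scaling). The gene called lower in the main fit was Gas6, the ligand that bridges exposed phosphatidylserine to Axl and Mertk. Gas6 had 481 CPM in medial members against 732 in medial matched cells, and 526 against 828 in the lateral library, log2 ratios of -0.61 (-0.69 to -0.52) and -0.65 (-0.75 to -0.56), fitted -0.55 (edgeR adjusted p = 1.40e-25, DESeq2 1.29e-07). The receptor Axl and its ligand Gas6 therefore differed in opposite directions. Hbegf, a ligand of the epidermal growth factor receptor, was among the genes with the largest fitted differences at 1.69, on few UMIs: it had 14.4 CPM in medial members against 3.85 in medial matched cells, and 6.59 against 3.30 in the lateral library.

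**Figure D2:**
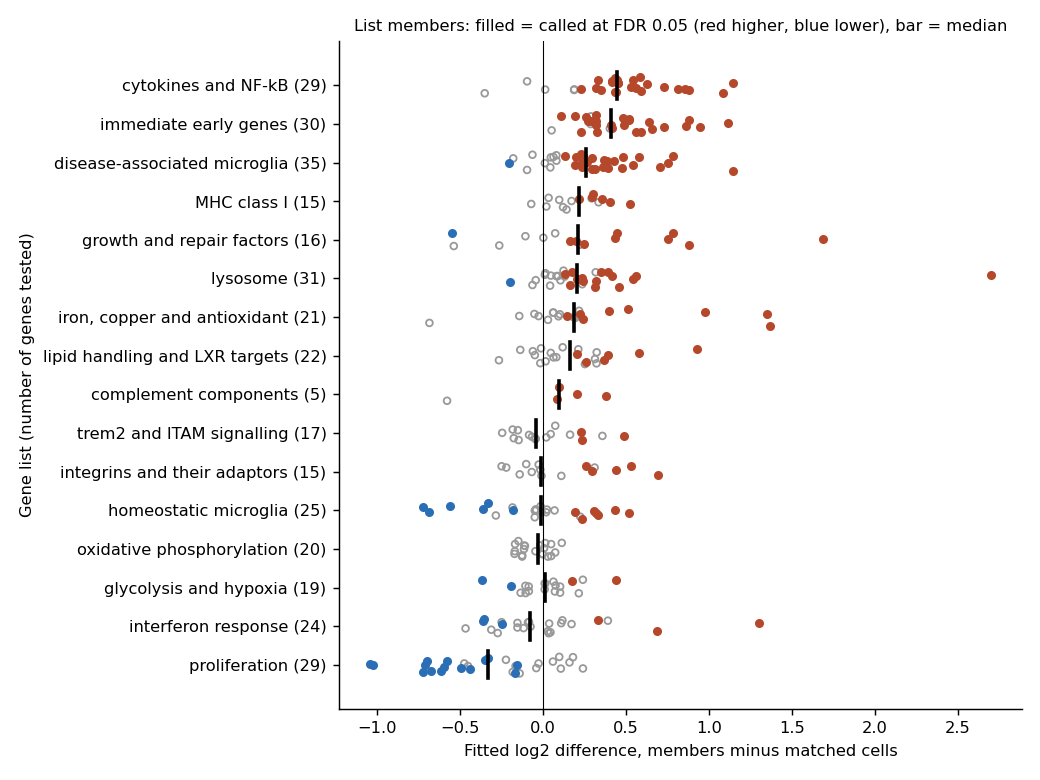
Fitted log2 difference, members minus matched cells (x axis), for each tested gene of 16 lists (y axis, number of genes in brackets). Filled points passed an edgeR adjusted p of 0.05 (red higher, blue lower), open points did not, and black bars are list medians. Cytokine, immediate early and disease-associated genes lie mostly right of 0, and proliferation genes mostly left.

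The largest fitted differences were in genes with few UMIs. Siglecf, an inhibitory receptor for sialic acid, had 38.8 CPM in medial members against 11.8 in medial matched cells, and 37.9 against 7.91 in the lateral library, log2 ratios of 1.72 (1.25 to 2.21) and 2.26 (1.62 to 2.96), fitted 2.0 (edgeR adjusted p = 3.30e-25). St8sia6, a sialyltransferase that makes ligands of the same receptor family, had 16.9 CPM in medial members against 4.09 in medial matched cells, and 14.8 against 1.32 in the lateral library, fitted 2.53 (edgeR adjusted p = 2.71e-15). Atp6v0d2, a subunit of the proton pump that acidifies lysosomes, had 20.2 CPM in medial members against 1.69 in medial matched cells, and 7.58 against 3.30 in the lateral library. Its fitted difference was 2.7, and the medial ratio, 3.58 (2.48 to 4.94), exceeded the lateral one, 1.2 (0.07 to 2.44). Il4i1, a secreted amino acid oxidase, had 44.1 CPM in medial members against 13 in medial matched cells, and 40.5 against 14.5 in the lateral library, fitted 1.72 (edgeR adjusted p = 1.68e-22). Slamf8, a cell surface receptor of macrophages, rose by a fitted 1.51, Mamdc2 by 1.42 and Dpys, an enzyme of pyrimidine breakdown, by 1.38. Il23a, a subunit of interleukin 23, rose by 1.72, but 1 cell gave 34.1% of its UMIs in medial members. Cd300lb, an activating receptor, rose by 1.35, which rested on the medial library: the log2 ratio was 2.69 (1.66 to 3.89) there and 0.23 (-0.53 to 1.0) in the lateral. Most genes of this paragraph were too low for DESeq2 to give an adjusted p.

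Genes of iron handling and the antioxidant response were higher for 8 of 21 and lower for none (3 and 0 in DESeq2, 5 and 0 without scaling). Slc7a11, the cystine importer that supplies glutathione synthesis, had 117 CPM in medial members against 49.1 in medial matched cells, and 79.1 against 32.6 in the lateral library, fitted 1.35 (edgeR adjusted p = 1.30e-34, DESeq2 7.55e-07). Slc11a1, which moves iron and manganese out of the phagosome, had 166 CPM in medial members against 92.7 in medial matched cells, and 186 against 95.6 in the lateral library, fitted 0.98 (edgeR adjusted p = 1.97e-31). Srxn1, which restores oxidized peroxiredoxins, rose by 1.37. Ftl1, the ferritin light chain, was not called and had opposite signs in the libraries, 0.03 (0.01 to 0.05) and -0.07 (-0.09 to -0.05) on the log2 scale. Of its sequence windows of read length, 48.4% are shared with other annotated genes.

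Lysosomal genes were higher for 15 of 31 and lower for 1, with a median fitted difference of 0.20. DESeq2 called 7 higher and 1 lower, and without scaling edgeR called 11 higher and 2 lower. Ctss, the cathepsin that also trims the class II invariant chain, had 4844 CPM in medial members against 3988 in medial matched cells, and 5227 against 4126 in the lateral library, fitted 0.39 (edgeR adjusted p = 6.61e-30). Psap, the precursor of the activators of sphingolipid breakdown, had 2158 CPM in medial members against 1595 in medial matched cells, and 1992 against 1695 in the lateral library, fitted 0.42 (edgeR adjusted p = 1.01e-24). Ctsd, the most abundant gene of the list, was higher by 0.13. Of the lipid handling and LXR list, 6 of 22 were higher, Apoe and Apoc1 among them, and none lower (3 and 0 in DESeq2, 4 and 1 without scaling). Of 9 cholesterol synthesis genes none was called in either direction by edgeR or DESeq2.

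Antigen presentation genes outside the rule were higher for a minority. Of 15 MHC class I genes, 6 were higher and none lower (2 higher in DESeq2, and 2 without scaling). B2m, the invariant light chain of class I, had 6347 CPM in medial members against 5567 in medial matched cells, and 7192 against 6093 in the lateral library, fitted 0.30 (edgeR adjusted p = 6.72e-19). The class I heavy chain gene H2-D1 had 2074 CPM in medial members against 1655 in medial matched cells, and 2238 against 1789 in the lateral library, fitted 0.41 (edgeR adjusted p = 1.23e-23). Of 8 further genes of class II presentation 2 were higher: Ctss, above, and the costimulatory ligand Cd86, at a fitted 0.32 (edgeR adjusted p = 0.00215, DESeq2 0.939). The members' own class II levels, which the rule capped, were not tested: Cd74 stood at 263 CPM in medial members against 127 in medial matched cells, and 213 against 160.2 in the lateral library.

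Integrin genes and their adaptors, the family of Itgax itself, were higher for 5 of 15 with none lower, and without scaling for 4 with 2 lower. Itgb2, the beta chain that pairs with the Itgax product, had 282 CPM in medial members against 231 in medial matched cells, and 289 against 264 in the lateral library, fitted 0.30 (edgeR adjusted p = 9.40e-05, DESeq2 0.440). Itgam, the neighbouring alpha M chain gene of complement receptor 3, was not called, with 255 CPM in medial members against 298 in medial matched cells, and 280.1 against 275 in the lateral library; 66.0% of its sequence windows of read length are shared with another annotated gene. Icam1, a ligand of beta 2 integrins, had 494 CPM in medial members against 368 in medial matched cells, and 327 against 270.3 in the lateral library, fitted 0.44 (edgeR adjusted p = 2.54e-12). Itgb5, the beta chain of a vitronectin receptor, rose by 0.26. Of 17 genes of Trem2 and its ITAM signalling pathway 3 were higher and none lower, and without scaling 3 and 2. Trem2, a receptor for lipids and Apoe, had 2868 CPM in medial members against 2668 in medial matched cells, and 2988 against 2600.3 in the lateral library, fitted 0.23 (edgeR adjusted p = 5.35e-09), and its adaptor Tyrobp had a fitted difference of 0.23.

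Cytokine and NF-kB genes gave the list with the highest median. Of 29 tested, 24 were higher in members and none lower, with a median fitted difference of 0.45 (DESeq2, 13 higher and 0 lower). Ccl4, a chemokine that attracts T cells and monocytes, had 2868 CPM in medial members against 1681 in medial matched cells, and 2155 against 1216 in the lateral library, fitted 0.88 (edgeR adjusted p = 2.50e-108). Ccl3, its close relative, had 1479.7 CPM in medial members against 1039.7 in medial matched cells, and 1098 against 626 in the lateral library, fitted 0.73 (edgeR adjusted p = 1.57e-57). Cxcl2, a neutrophil attractant, had 1238 CPM in medial members against 699 in medial matched cells, and 609 against 372 in the lateral library, fitted 0.86 (edgeR adjusted p = 1.39e-64). Cd83, a membrane protein of activated antigen-presenting cells, rose by 0.42. The checkpoint receptor gene Lag3, chosen after its value was seen, rose by a fitted 1.23 (edgeR adjusted p = 1.76e-48).

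Immediate early genes, which cells induce within minutes of a stimulus and also during tissue dissociation, were higher as broadly: 26 of 30 and none lower, median 0.41 (DESeq2, 14 higher and 0 lower). Their summed share was 189 of 10000 UMIs in medial members against 150 in matched cells, and 155 against 114 in the lateral library. When comparison cells were matched on this share as well as on depth, a setting chosen after the data were seen, 218 genes were higher and 54 lower, and 240 of the 628 remained called. Under it the cytokine and NF-kB list had 12 higher and 0 lower with a median of 0.18, and immediate early genes 5 higher and 3 lower with a median of 0.05. The disease-associated list had 24 higher and 0 lower, the lysosome list 15 and 1, and the iron, copper and antioxidant list 8 and 0. Cxcl2 was among the genes that lost the call, at a fitted 0.26 (edgeR adjusted p = 0.347), as were Icam1, Cd86, Ifi27l2a, Il23a, Fscn1 and Gpnmb, while Ccl4, Ccl3 and Ccl6 kept it. The part of dissociation in the cytokine result was not tested.

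Proliferation genes were lower in members for 15 of 29 and higher for none, but DESeq2 called none in either direction. By list median the fall was larger in the medial library, where the median log2 ratio was -0.68, against -0.13 in the lateral. Cenpf, a kinetochore protein, had 9.63 CPM in medial members against 32 in medial matched cells, and 19.4 against 26.7 in the lateral library, fitted -1.02 (edgeR adjusted p = 1.16e-06). Birc5, or survivin, had 38.8 CPM in medial members against 84 in medial matched cells, and 68.6 against 82.1 in the lateral library, fitted -0.61 (edgeR adjusted p = 2.48e-07, DESeq2 1.0). Ccnb1, the cyclin of mitotic entry, was lower, at a fitted -1.04, and Hmmr, a spindle protein, at -1.05. The cell cycle antigen Mki67 was not called, with 22.9 CPM in medial members against 36.8 in medial matched cells, and 33 against 27.4 in the lateral library. Cells with transcripts of at least 2 cycling genes and at least 3 such UMIs were 35.7% of medial members (30.7 to 40.9) and 39.3% of matched cells (34.2 to 44.6). In the lateral library they were 32.3% (26.8 to 38.3) and 42.0% (36 to 48.2). By this measure the gap was the wider in the lateral library, unlike the list median. The intervals overlapped in both libraries, which does not show that the shares were equal. The lower-ranked genes of the fit also held Slpi, a secreted protease inhibitor, at 5.30 CPM in medial members against 9.63 in medial matched cells, and 4.28 against 12.2 in the lateral library (fitted -1.05), and Cd5l, a scavenger receptor family member. Cd5l fell in the lateral library only by its interval, -1.26 (-1.7 to -0.85) against -0.08 (-0.77 to 0.61) medial, and there 1 cell gave 40.3% of its member UMIs. The 12 lowest genes taken by rule also held Aaas, Abca7, Bcs1l, D6Wsu163e, Dhrs11, Glmn and Rcc1, which are not described further.

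Interferon response genes showed no common direction, with 3 of 24 higher and 3 lower. Ifi27l2a, an interferon-inducible gene, had 669 CPM in medial members against 999.8 in medial matched cells, and 693 against 844 in the lateral library, fitted -0.36 (edgeR adjusted p = 2.84e-12, DESeq2 0.346). Ifit1, which binds viral RNA, rose by 1.3, but 1 medial member gave 52.7% of its UMIs in that group. Of 19 glycolysis and hypoxia genes 2 were higher and 2 lower, with the glycolytic enzyme gene Gapdh at -0.19. Of 20 oxidative phosphorylation genes none was called by edgeR or DESeq2, and 5 were lower without scaling. Complement components were higher for 4 of 5 genes, and for 1 without scaling. C1qb, a chain of the initiating complement protein, differed by only 0.21. TGF-beta signalling genes were higher for 3 of 12 and microglial transcription factors for 5 of 20, of which DESeq2 called none. Without scaling 0 and 1 were higher, and with immediate early matching 2 and 0.

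**Figure D3:**
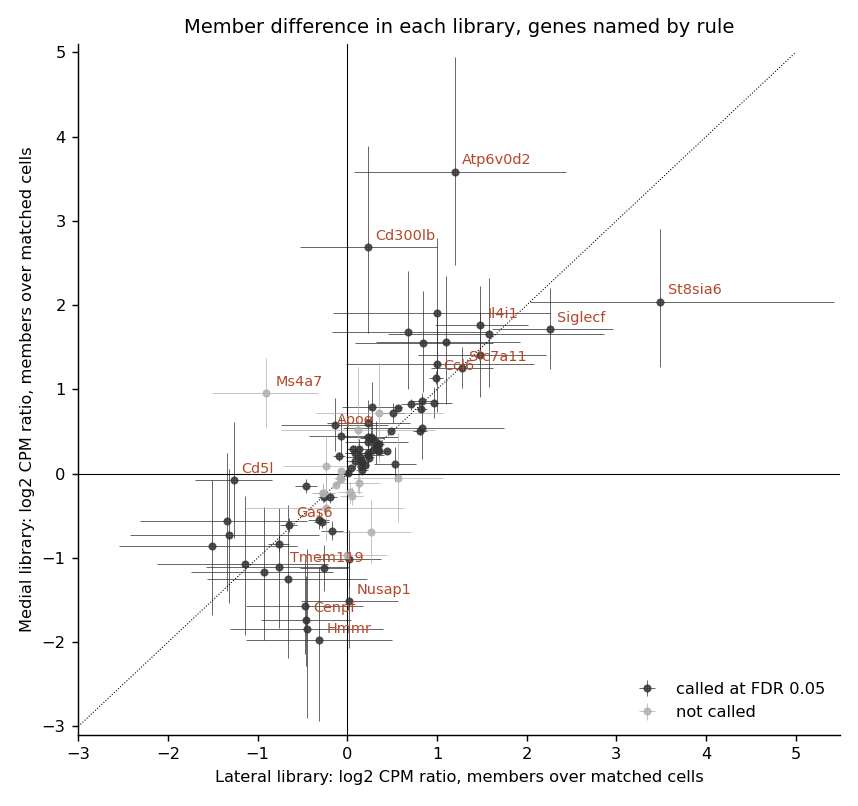
Log2 CPM ratio of members over matched cells in the lateral (x axis) and the medial library (y axis) for genes named by rule; bars are exact 95% binomial intervals, black points passed an edgeR adjusted p of 0.05 and the dotted line marks equality. Most called genes lie in the lower left or upper right, and Ms4a7 had opposite signs (0.95 medial, -0.90 lateral). The 12 highest and 12 lowest genes were taken only where the sign was the same in both libraries.

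Levels were also set out by the number of Itgax UMIs, as a description, because the rule used that number. For this, 122 medial and 73 lateral cells with 2 or more Itgax UMIs were matched on depth to as many cells with 1 and as many with 0. Apoe stood at 41869, 53819 and 75395 CPM in medial cells with 0, 1, and 2 or more Itgax UMIs, and at 36381, 52982 and 58605 CPM in lateral cells. Ccl6 had 429, 808 and 1221 CPM in that order in the medial library and 601, 1121 and 1479 in the lateral. Siglecf had 10.5, 30.4 and 65.7 CPM medial and 7.91, 32.9 and 68.9 CPM lateral. The levels of these 3 genes climbed at both steps in both libraries. All 3 had been called higher in members, so a rise from 0 UMIs was built into their choice.

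Tmem119 went down in the same order, from 548, 412 and 172 CPM medial and 478, 376 and 216 CPM lateral. Gas6 did too, with 730.2, 569 and 290.3 CPM and 745, 575 and 417 CPM. Both genes had been called lower in members. Other genes did not follow a single order: Spp1 had 3366, 5037 and 7891 CPM medial, but 5392, 3981 and 11606 CPM lateral, where cells with 1 Itgax UMI lay lowest. Cxcl2 climbed in the medial library, 627, 961 and 1979 CPM, and in the lateral was highest in cells with 1, 249.6, 901 and 690.2 CPM. Cells with 0 and with 1 UMI can differ by the capture of a single molecule.

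**Figure D4:**
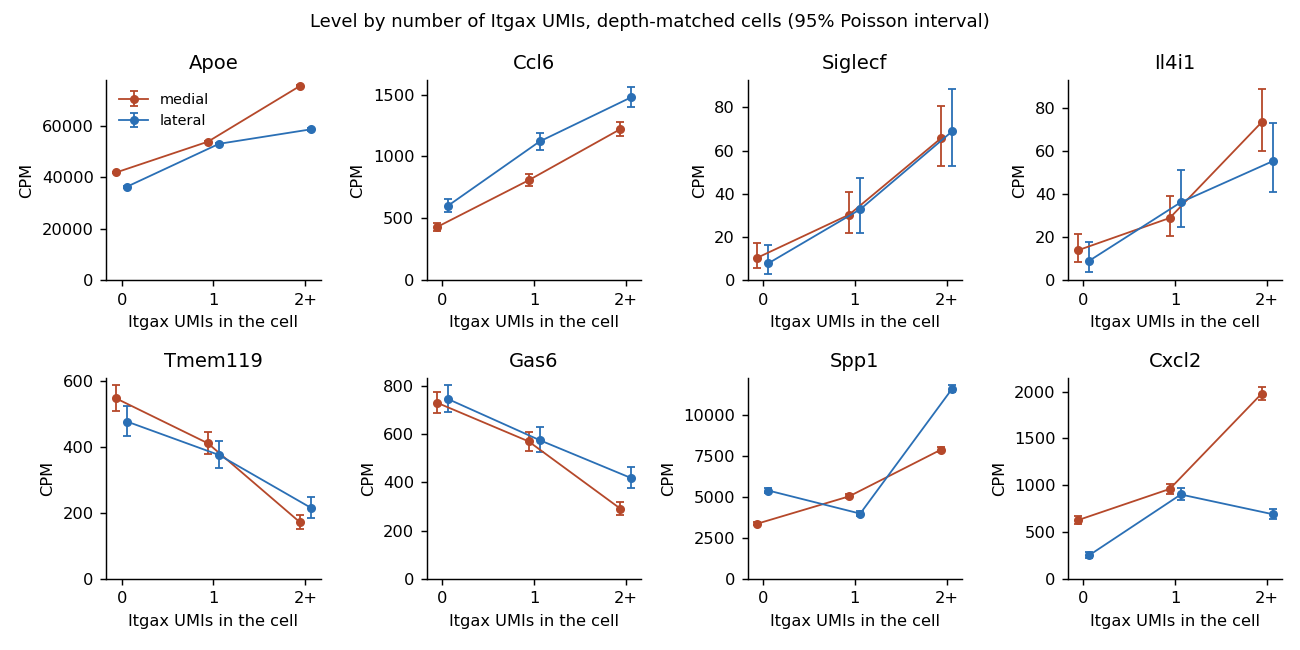
CPM (y axes, from 0) of 8 genes in depth-matched class II-low cells with 0, 1, and 2 or more Itgax UMIs (x axes) in the medial (red, 122 cells per point) and lateral (blue, 73 cells per point) library; bars are exact Poisson 95% intervals. Apoe, Ccl6, Siglecf and Il4i1 climb and Tmem119 and Gas6 descend in both libraries, whereas lateral Spp1 and Cxcl2 do not follow the order.

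Seen from the other side, the share of class II-low cells with an Itgax UMI was set out by quintiles of each cell's share of list UMIs, all cells thinned to 5000 UMIs. Along the disease-associated list, without Itgax, the share went from 4.89% (2.87 to 7.71) in the lowest to 23.9% (19.5 to 28.8) in the highest quintile of the medial library, and from 4.47% (2.58 to 7.16) in the lowest to 11.8% (8.61 to 15.6) of the lateral. Apoe makes up much of that list, and with Apoe left out, after the data were seen, the shares went from 8.33% (5.65 to 11.7) in the lowest to 15.6% (11.9 to 19.8) and from 4.19% (2.36 to 6.82) in the lowest to 10.1% (7.16 to 13.7). The intervals of the lowest and highest quintile then lay close together and still did not overlap in either library. Along the immediate early list the shares went from 4.31% (2.43 to 7.01) in the lowest to 16.4% (12.7 to 20.8) and from 3.35% (1.74 to 5.78) in the lowest to 13.4% (10.1 to 17.4). Along the homeostatic list they went from 4.60% (2.65 to 7.36) in the lowest to 15.9% (12.2 to 20.1) medial and from 5.59% (3.45 to 8.50) in the lowest to 7.56% (5.04 to 10.8) lateral, with no steady climb over the quintiles between. Cst3, which was higher in members, weighs heavily in the homeostatic sum and was not left out. Tmem119 and P2ry12 of the same list were lower in members. Along the proliferation list the shares went from 12.4% (9.09 to 16.3) in the lowest to 6.34% (4.02 to 9.44) medial and from 6.70% (4.34 to 9.81) in the lowest to 5.32% (3.23 to 8.19) lateral.

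**Figure D5:**
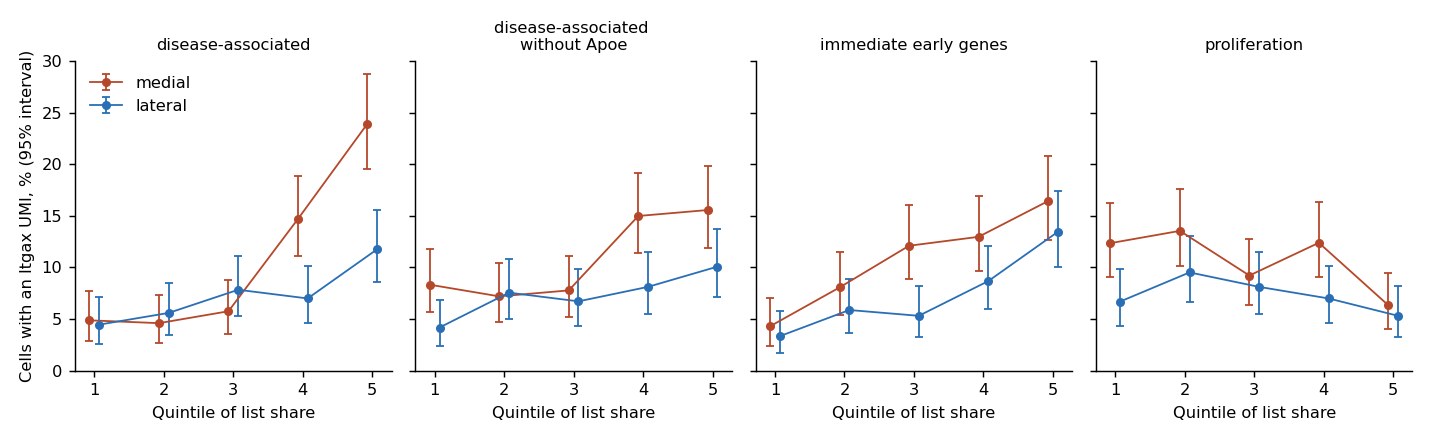
Percentage of class II-low cells with an Itgax UMI (y axis, cells thinned to 5000 UMIs) by quintile of the cell's share of UMIs from 4 gene lists (x axes), medial in red and lateral in blue; bars are 95% Clopper-Pearson intervals. The share is largest in the top disease-associated quintile of the medial library, 23.9%.

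Between regions, medial and lateral members were close in most genes. Of 5783 genes with at least 100 UMIs in members, 2.08% (120) were over 1.5 times higher in medial members and 1.09% (63) over 1.5 times higher in lateral ones, 3.16% in all, with no test possible. Medial members had more Cxcl2, 1238 CPM against 609 in lateral ones, log2 ratio 1.02 (0.95 to 1.1). Matched cells also had more Cxcl2 in the medial library, as given above. Bcl2a1c, of a family of inhibitors of cell death, had 51 against 15.8 CPM, and Ch25h, which makes 25-hydroxycholesterol, 98.5 against 42.8 CPM with a log2 ratio of 1.2 (0.91 to 1.5). Cytokine and NF-kB genes had a median log2 ratio of 0.28, with 19 of 29 intervals above 0 and 2 below, and immediate early genes 0.33, with 25 of 29 above and 1 below. The median over all 5783 genes was -0.04. The share of such intervals over all genes was not counted, and in the disease-associated list 7 of 35 lay above 0 and 18 below. In medial and lateral members cytokine and NF-kB genes took 172 and 144 of 10000 UMIs, and in matched cells 122 and 103. For immediate early genes these values were 189 and 155 in members and 150 and 114 in matched cells, so neither gap was particular to members. Rsad2 had 36.6 against 10.5 CPM, but 1 medial cell held 57.2% of its medial UMIs.

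Lateral members had more of the cell cycle genes Birc5, Stmn1, Top2a, Nusap1 and Pbk, and of Ccl6. The median log2 ratio of proliferation genes was -0.46, against -0.04 over all genes. Of 22 intervals 13 lay below 0 and 1 above, again without a share over all genes to set beside them. Stmn1, a regulator of microtubules, had 234 CPM in medial and 361 in lateral members, log2 ratio -0.63 (-0.75 to -0.50). In matched cells Stmn1 was at 373 and 407 CPM, so the region gap was wider among members; the difference of the 2 log2 ratios was -0.50 (-0.67 to -0.34), an interval for counting error. Ccl6 had 959 against 1331 CPM, log2 ratio -0.47 (-0.54 to -0.41), and its matched cells had 435 and 671. For Ch25h the member difference was 0.45 (0.23 to 0.67) medial and -0.07 (-0.42 to 0.29) lateral, so only the medial interval lay above 0; the difference between libraries was 0.51 (0.10 to 0.92).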

How the data were processed

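The deposited values are raw UMI counts per gene and barcode, 27998 gene IDs by 737280 barcodes per library, made by the authors with Cell Ranger 2.0.1, STAR and mm10, per the submitters' processing notes. The gene annotation is not stated in the notes or labels used here. Symbols carried by several gene IDs (56) were summed. The members, gene lists and tests were chosen with earlier results of these data known.

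Barcodes were kept as cells from 2400 UMIs and 300 genes upwards, with mitochondrial genes at no more than 10% of UMIs (a limit that removed 3 per library). Doublets were not removed; leaving out the deepest 5% of cells is an alternative. Cells held 81.8% of 28660496 medial and 82.4% of 27955414 lateral UMIs, with median genes of 2789 and 2643.5. Intervals cover counting error only. Cells are not replicates. The block takes up the difference between the libraries, so the spread left in the fit is how far the member difference varies between them, which may be technical. That spread is pooled over all genes, near counting noise, and does not measure differences between mice. With 1 library per region there is no test between regions.

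Members were matched to Itgax-0 cells on total UMIs without replacement, deepest first. The 4 sums were fitted in edgeR 4.0.16 (TMM, library as a block, glmQLFit and glmQLFTest, R 4.3.3) over genes with at least 100 UMIs, with Benjamini-Hochberg adjustment at 0.05, leaving out the 5 genes of the rule. DESeq2 1.42.0 was an alternative. The fit was also run on simulated sums. These had 1 small spread for all genes and a member difference that did not vary between libraries. That run cannot show whether the p-values hold for these data. The library number marks 1 region each, so the block pairs members and matched cells of 1 library.

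The text names the 12 genes highest and 12 lowest by fitted difference with 1 sign in both libraries, from each list the 2 with smallest p and the 1 most abundant, the 8 most different between regions each way, and a fixed set, leaving out some that this rule takes. Most of the 12 lowest are given by name only. Lists with no named value here were phagocytic and complement receptors (5 higher, 2 lower of 19; without scaling 3 and 4) and stress and unfolded protein (3 higher, 2 lower of 12; without scaling 0 and 4). Of the genes named, Ccnb1, Ctsd, Ftl1, Gapdh, Itgam, Spp1 and Stmn1 share at least 10% of 57-base windows of their GENCODE transcripts with other genes, so their counts are less certain.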

Additional observations from a re-analysis of the deposited data

Results flagged for a closer look

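For 3 genes the member difference had opposite signs in the libraries, each with an interval for counting error that left out 0; the difference between the libraries was not tested. Ms4a7, a marker of border macrophages, had a log2 ratio of 0.95 (0.54 to 1.37) for medial and -0.90 (-1.5 to -0.32) for lateral cells, and 1 cell gave 18.4% of its medial member UMIs. The border macrophage genes Mrc1, Cd163 and Lyve1 were at 3 UMIs or fewer in members of both libraries, while Pf4 of the same list had 77 medial and 46 lateral member UMIs. Hspa5, an endoplasmic reticulum chaperone, had 0.20 (0.15 to 0.26) and -0.093 (-0.16 to -0.02). The ferritin gene Ftl1 had 0.033 and -0.072.

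Itgax was also seen outside the cells analysed. Barcodes with at least 500 but under 2400 UMIs, which were not kept as cells, held 13 medial and 13 lateral Itgax UMIs. That is 44.5 and 44.7 CPM, above the 25.1 and 24.1 CPM of barcodes with fewer than 100 UMIs.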

How the results depend on the processing

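The counts of 453 higher and 175 lower genes stayed within 1.5 times under RLE scaling, a class II limit of 0.1% or none, at least 2 Itgax UMIs, at least 5000 UMIs, without the 5% deepest cells, and without the top cell of each gene. Higher and lower calls were 227 and 312 without scaling, 86 and 7 in DESeq2, 218 and 54 with matching on the immediate early share, and 254 and 75 without cells with proliferation transcripts (229 and 182 members). The lower count was 84 without matching, 103 after thinning to 5000 UMIs and 73 without the filter on low counts. With no replicate block, edgeR called 20 higher and 1 lower, and of 65 named genes 52 lost the call; Lag3, Siglecf, Il4i1, St8sia6, Slc11a1, Axl and Tmem119 kept it. For members as a share of cells, settings gave, medial then lateral, 9.90% and 6.90% thinned to 5000 UMIs, 5.81% and 3.84% thinned to 2400, 5.73% and 3.16% with at least 2 Itgax UMIs, 20.9% and 14% with no class II limit, and 15.0% medial at a limit of 0.1%. Between regions, a minimum of 30 UMIs gave 386 genes past 1.5 medial over lateral and 364 the other way, and counting each member alike gave 100 lateral over medial.

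Between the highest and lowest disease-associated quintile the medial share of Itgax-positive cells differed by 19.0 percentage points, and by 7.23 with Apoe left out, a setting added after the data were seen, as were immediate early matching, leaving out cells with proliferation transcripts, and leaving out the top cell.

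Among 65 named genes, or those of them still tested, DESeq2 lost 14 calls, no matching 10, matching on the immediate early share 10, leaving out cells with proliferation transcripts 9, and the other settings with the block at most 4 each. The DESeq2 number leaves out named genes to which it gave no adjusted p. Those were not called by DESeq2 either, so more calls than these lack it. Lost without matching were Il23a, Cd300lb, Gpnmb, Ifit1, Birc5, Hmmr, Cd5l, Ch25h, Hspa5 and Stmn1. Igf1, Cd86, Ch25h and Hspa5 were lost without scaling, Cenpf, Hmmr, Cd5l and Ch25h after thinning, and Ifit1 without its top cell. Reversed values were few: Gpnmb was 0.11 with at least 2 Itgax UMIs, and Hspa5 was -0.059 with immediate early matching and -0.031 without cells with proliferation transcripts. With 1 library left out there was no test. Hspa5 then ranged from -0.025 to 0.30 and Cd5l from -1.20 to 0.015. The causes were not tested. Depth limits the low genes: Siglecf rests on 161 and 115 member UMIs.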

Other observations

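Itgax-positive cells above the class II limit were set beside members matched to them on depth, 90 medial and 54 lateral pairs, a description added after the data were seen. The class II limit set these groups apart, and no test was made. Members had less of the class I genes: H2-D1 was at 2324 against 4378 CPM in the medial library, log2 ratio -0.91 (-0.99 to -0.84), and 2374 against 4287 CPM in the lateral, -0.85 (-0.95 to -0.76). Ccl5, a chemokine that attracts T cells, was at 51.8 against 263 CPM and 19.96 against 343 CPM, log2 ratios -2.34 (-2.82 to -1.9) and -4.1 (-5.08 to -3.27). Slamf8 and Il4i1, which were higher in members than in Itgax-0 cells, were lower in members than in class II-high cells, with medial log2 ratios of -1.33 (-1.9 to -0.78) and -0.94 (-1.48 to -0.41) and lateral ones of -2.29 (-3.44 to -1.29) and -1.43 (-2.35 to -0.57).

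Members had more of Gas6, Tmem119 and Cxcl2 than these class II-high cells. Gas6 was at 424 against 174 CPM in the medial library, log2 ratio 1.28 (1.02 to 1.55), and 516 against 281 CPM in the lateral, 0.88 (0.60 to 1.15). The log2 ratios of Tmem119 were 1.05 (0.76 to 1.35) and 0.55 (0.18 to 0.93), and those of Igf1 were 0.61 (0.40 to 0.82) and 0.36 (0.12 to 0.60). Apoe differed less, at -0.21 (-0.22 to -0.19) and -0.09 (-0.11 to -0.06). Spp1 differed in the lateral library, -0.81 (-0.87 to -0.74), and was close to equal in the medial, 0.06 (0.00 to 0.12). Intervals cover counting error only.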
